A study of Mus musculus with 7 samples.

Results

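The cells described here are conventional non-naive CD4 T cells of mouse subcutaneous fat, chosen one by one from their raw unique molecular identifier (UMI) counts. A cell was taken when it held at least 1 UMI of Cd3d, Cd3e or Cd3g together, the CD3 chains that carry the T cell receptor signal, and at least 1 UMI of Cd4. It also had to hold no UMI of Foxp3 (regulatory T cells), Lef1 or Ccr7 (naive and central memory T cells), Cd8a or Cd8b1 (CD8 T cells), Cd163l1 (a gamma delta T cell gene), Cd79a (B cells), C1qa (macrophages) or Pdgfra (fibro-adipogenic progenitors). The gate took 406 of 39566 cells that passed the quality filters, 1.03% of the total, 53 from young and 353 from old libraries. The values of these gate genes are therefore no result, and levels set against other gates are given below as description. The gate reads no age, so comparisons between ages are tested.

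Cells were taken from the inguinal subcutaneous fat pad of C57BL/6N females, with 4 young libraries (11 to 12 weeks of age) and 3 old libraries (18 months). No allele or treatment is named for either age, so the groups differ in the labels by age alone. The tissue was minced, digested with collagenase, cleared of red blood cells and filtered, and the stromal vascular fraction, meaning all cells other than adipocytes, was profiled by droplet-based single-cell RNA sequencing with 3′ tags. The labels number the libraries within an age but do not say whether each is 1 mouse, so p-values measure the spread between libraries. The libraries held 52336665 to 99516882 UMIs, and the gated cells of a library 15198 to 970980 UMIs, with medians of 3722 to 7570 UMIs per cell. Gated cells shared 0 cell barcodes between libraries.

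CD4 T cells recognise peptides on MHC class II and direct other immune cells through secreted cytokines and surface ligands. After a first response they can settle in tissues as memory cells with a helper program named after its cytokines: Th1 (interferon gamma, driven by Tbx21), Th2 (driven by Gata3), Th17 (producing Il17a and Il17f) or follicular helper (Bcl6, Cxcr5 and Il21). In fat, helper T cells lie beside macrophages and regulatory T cells, and a population of CD4 T cells that carry inhibitory receptors and secrete osteopontin, called senescence-associated, is known from ageing and obese animals.

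The name of the population was checked with markers that the gate did not use. Each cell was first thinned to 2000 UMIs, which left out 14 gated cells under that depth and kept 392. Icos, an inducible costimulatory receptor, had a UMI in 40.3% of these cells, Cd5, a surface inhibitor of T cell receptor signals, in 41.1%, and Tnfsf8, the ligand of CD30, in 27.3%. In progenitor cells of the same libraries, which should lack all 3 genes, the shares at the same depth were 0.326%, 0.0622% and 0.0699%. Without thinning the gated cells gave 56.4%, 64.8% and 40.4%. Against non-naive CD8 T cells, gated alike with Cd8a or Cd8b1 in place of Cd4, the shares were 15.6% for Icos, 16.2% for Cd5 and 2.05% for Tnfsf8. Dapl1, a gene of naive T cells, had a UMI in 1.02% of gated cells against 13.1% of cells in a naive gate. That gate took T cells with Lef1 or Ccr7, whatever their Cd4 and Cd8 UMIs. Ikzf2, a regulatory T cell gene that the gate did not use, was found in 20.4% of gated cells and in 68.9% of Foxp3-positive cells. Klrb1c, the NK1.1 receptor of natural killer cells, had 0 UMIs in all libraries, and Zbtb16, the factor of innate-like T cells, was found in 0.255% of thinned cells, below its 9.45% in progenitors.

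At the edges of the gate, 185 cells had exactly 1 Cd4 UMI, 105 had 2 and 116 had 3 or more, with a highest value of 9. The CD3 genes were firmer, with 1 UMI in 18 cells, 2 in 17 and 3 or more in 371. Just outside the gate lay 574 cells that met every other condition without a Cd4 UMI, 142 with a single Lef1 or Ccr7 UMI, 32 with a single Foxp3 UMI and 6 with a single Cd8a or Cd8b1 UMI. A Cd4 UMI was found in 0.149% of Pdgfra-positive progenitors, 0.487% of Cdh5-positive endothelial cells and 0.128% of Cd79a-positive B cells, and both a Cd4 and a CD3 UMI in 0.0263%, 0.0696% and 0.0425% of them. The part of free RNA or doublets in these shares was not tested.

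Inside the gate, most lists of other cell types' markers were higher in the old libraries. The summed level of the endothelial and mural list (11 genes) ranged from 255 to 778 CPM, the counts of a gene scaled to a fixed total per library, in the young and 1328 to 9435 in the old libraries. For the dendritic and MHC class II list (12 genes) the ranges were 38.9 to 263 and 265 to 11489, and for the macrophage and monocyte list (12 genes) 233 to 401 and 788 to 4127. Old 2 was the highest for endothelial and old 3 for MHC class II and macrophage genes. The natural killer and innate lymphoid list (9 genes) ranged from 0 to 127 against 193 to 737, with Ncr1 at 0 in every library, and the B and plasma list (10 genes) from 0 to 19.4 against 25.9 to 70.0. The regulatory T cell list (9 genes, Foxp3 at 0 by the rule) ranged from 395 to 871 against 1126 to 1544, and the granulocyte and mast list (7 genes) from 0 to 6.70 against 37.1 to 239. Progenitor genes (12 genes) overlapped, at 642 to 1645 and 224 to 1021.

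Much of this signal sat in few cells. In 22 of 353 old gated cells, against 0 of 53 young ones (which allows up to 5.66%), over 1% of the UMIs came from the endothelial, MHC class II, macrophage, B or progenitor lists. These were 3, 8 and 11 cells of old 1, old 2 and old 3, and they held 45.2%, 80.3% and 96.1% of the UMIs of those lists. They were also deep, with medians of 6730, 19348.5 and 21624 UMIs against 4591, 4695.5 and 4031 in the other gated cells, and 5 of the 22 were among the cells with the highest doublet scores. Leaving them out is an alternative that was chosen after seeing the data, and its values are given beside the results they touch.

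**Figure D1:**
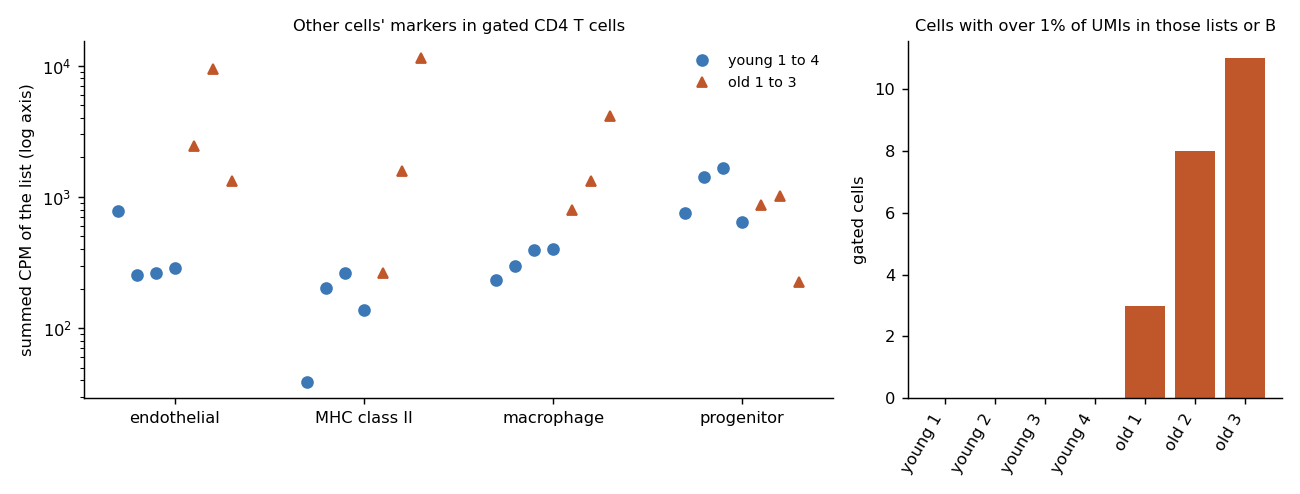
Left, summed CPM (log axis) of 4 marker lists of other cell types in the gated cells, 1 point per library; right, the number of gated cells per library with over 1% of their UMIs in those lists or the B list. The old libraries lie above the young ones for endothelial, MHC class II and macrophage genes, and the bars are at 0 in the 4 young libraries and at 3, 8 and 11 in the old ones.

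The gated cells made up a larger share of the stromal vascular cells in every old library than in any young library. They were 0.149%, 0.474%, 0.105% and 0.255% of the kept cells of young 1 to 4, from 7, 28, 3 and 15 cells, and 0.83%, 2.23% and 2.15% of those of old 1 to 3, from 55, 166 and 132 cells. The mean was 0.246% ± 0.165 (SD, n = 4) against 1.74% ± 0.786 (SD, n = 3), a log2 odds difference of 2.86. An exact permutation test over the libraries gave p = 0.0286, the smallest value that 4 against 3 libraries allow, and 0.0857 after Benjamini-Hochberg adjustment over the 3 denominators. With the 22 cells rich in other markers left out, the log2 odds difference was 2.76.

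Within the T cell compartment the ages overlapped. The gated cells were 10.0%, 10.4%, 0.962% and 4.03% of the T cells of young 1 to 4 and 6.65%, 21.3% and 11.0% of those of old 1 to 3 (6.34% ± 4.61 against 13% ± 7.53, SD, n = 4 and 3, exact permutation p = 0.229, adjusted 0.314). Among T cells with a Cd4 UMI and no Cd8 UMI they were 26.9% ± 20.9 against 43.4% ± 9.66 (SD, n = 4 and 3, exact permutation p = 0.314). The young libraries were uneven. Young 3 held 93 Cd4-positive T cells, of which 90 had a Lef1 or Ccr7 UMI and 3 entered the gate, whereas young 2 held 57, of which 28 entered. The naive gate took 30.0%, 37.8%, 82.1% and 72.6% of the T cells of young 1 to 4 and 48.0%, 30.4% and 44.9% of those of old 1 to 3.

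**Figure D2:**
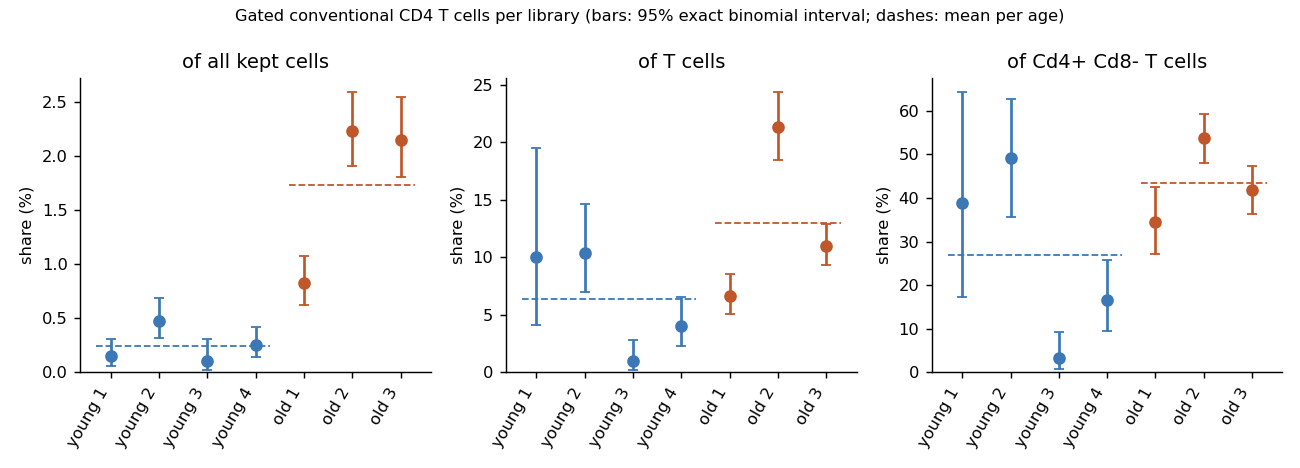
Share (%) of gated cells in each library, of all kept cells, of T cells and of T cells with a Cd4 and no Cd8 UMI; bars are 95% exact binomial intervals, which cover counting error only, and dashes the mean of each age. The old libraries lie above the young ones for kept cells, and the ages overlap for both T cell denominators.

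The gated cells were set against non-naive CD8 T cells of the same libraries, and the genes named here and in the next paragraph were picked from their values. These are mean CPM over the 5 libraries with at least 10 cells of the gate, as description. Of 3156 genes compared, 349 were higher in the CD4 gate in all 5 libraries, 70 of them with a ratio of at least 2 after adding 5 CPM, and 195 were lower, 33 of them at a ratio of at most 0.5. Tnfsf8 stood at 294 CPM (126 to 602) against 13.9 (0 to 31.0), a ratio of 15.8. Tnfrsf4, the costimulatory receptor OX40, stood at 196 against 6.43, and Tnfsf11, the RANK ligand, at 150 against 10.0. Il1rl1, the ST2 receptor, was at 75.8 against 2.98, Izumo1r, a folate receptor of CD4 T cells, at 87.7 against 5.99, and Areg, the growth factor amphiregulin, at 83.5 against 9.10. Icos was at 418 against 95.8 and Cd40lg, which licenses B cells and dendritic cells, at 114 against 31.2. In the other direction the granule proteases Gzma and Gzmb were at 4.52 and 5.82 CPM against 433 and 375 in CD8 cells. The chemokine Ccl5 was at 1369 CPM (997 to 1925) against 10329 (6649 to 16292), and Itgae, the integrin of epithelial residency, at 2.70 against 99.2. A UMI of the cytotoxic set (Ccl5, Gzmk, Eomes, Nkg7, Prf1) was present in 176 of 392 thinned CD4 cells (44.9%), against 97.4% of CD8 and 45.1% of naive-gate cells.

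Against the naive gate, genes of effector and memory cells lay on both sides. Of 3021 genes compared in 5 libraries, 495 were higher in every library and 200 lower. S100a4, a calcium-binding protein of memory T cells, was at 1776 CPM against 410, Ifng at 295 against 69.6, Cd40lg at 114 against 22.6, Cxcr6, a receptor of tissue memory cells, at 121 against 33.2 and the nuclear receptor Rora at 569 against 191. Satb1, a chromatin organiser of naive T cells, was at 169 CPM against 585 and Dapl1 at 5.04 against 87.4. The naive gate did not ask for Cd4 or exclude Cd8a and Cd8b1, so it was open to CD4 and CD8 T cells. Lower than in the naive gate in all 5 libraries were also the cytotoxic genes Gzma (4.52 against 74.7), Ccl4 (39.0 against 115), Eomes (38.8 against 118) and Xcl1 (45.4 against 107). From Foxp3-positive cells, compared in the 3 old libraries, the gate differed by Tnfsf8 at 385 CPM (273 to 602) against 18.8 (5.72 to 37.1), Ifng at 244 against 17.7, Cd40lg at 71.7 against 7.54 and Sostdc1, a secreted antagonist of BMP signals, at 85.1 (78.3 to 94.4) against 0 UMIs. The regulatory genes Il2ra (61.3 against 338), Ikzf2 (199 against 990), Tnfrsf9 (26.8 against 251) and Klrg1 (57.2 against 321) were lower in the gate in all 3 libraries. Il1rl1, higher in the gate than in CD8 cells, was also lower than in Foxp3-positive cells in all 3, at 93.5 CPM (31.0 to 144) against 403 (252 to 543).

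**Figure D3:**
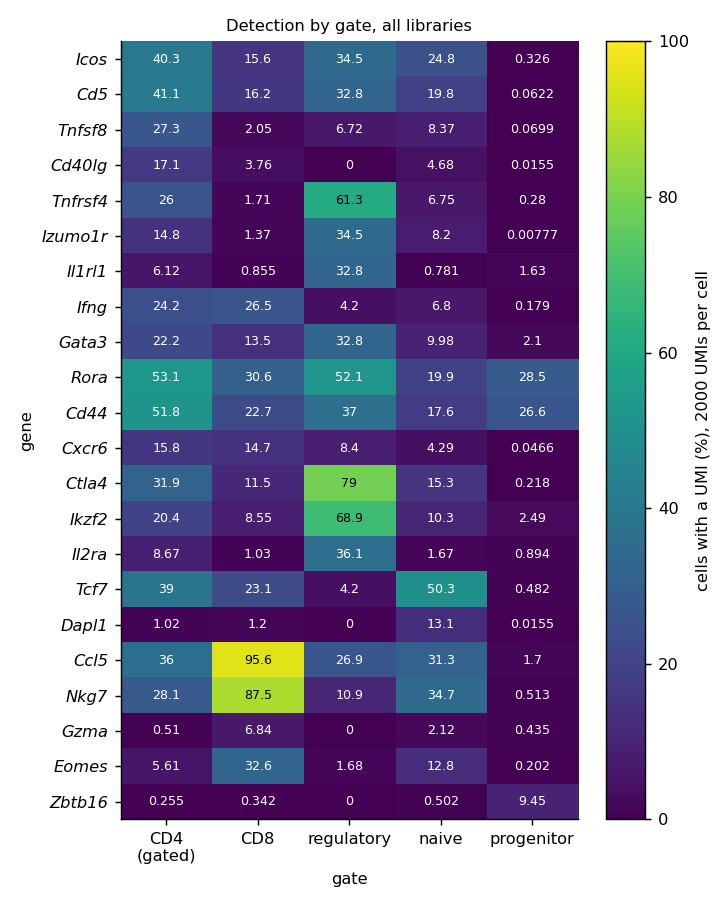
Share (%) of cells with at least 1 UMI of each gene, all cells thinned to 2000 UMIs, in the gated CD4 cells and in 4 other gates; the colour scale runs from 0 to 100%. Tnfsf8 and Cd40lg are highest in the CD4 column (27.3% and 17.1%), Ccl5 and Nkg7 in the CD8 column, Ctla4 and Ikzf2 in the regulatory column and Tcf7 and Dapl1 in the naive column.

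No single helper program covered the population. A UMI of the Th1 set (Tbx21, Ifng, Cxcr3) was present in 171 of 392 thinned cells (43.6%) and of the Th2 set (Gata3, Il4, Il13, Il1rl1) in 95 (24.2%). In progenitor cells these sets reached 0.459% and 3.82%. Neither set was particular to the gate. The Th1 set was found in 54.2% of CD8 and 23.5% of Foxp3-positive cells, and the Th2 set in 15.0% and 51.3%. The part of regulatory T cells in the Th2 share was not tested. The follicular helper set (Cxcr5, Bcl6, Il21) was present in 21 cells (5.36%), close to its 4.85% in progenitors, where Bcl6 had a UMI in 4.74% of cells. Il21 itself was found in 1.28% of gated cells and in 0 of 12868 progenitors (which allows up to 0.0233%). Il4 and Il13 were each found in 0.255% of thinned cells, so the Th2 set rested on Gata3 (22.2%) and Il1rl1 (6.12%). Th1 and Th2 sets were seen together in 35 cells, where the product of the shares gives 41.4.

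The Th1 and Th2 sets overlapped between ages. The Th1 set had a UMI in 42.9% and 38.5% of the cells of young 2 and young 4 and in 44.4%, 36.2% and 52.8% of those of old 1 to 3. The Th2 set gave 25% and 23.1% against 37.0%, 27.0% and 16.8%. Il17a was found in young 2 alone, in 10.7% of its thinned cells. The residency set (Cd69, Itgae, Cxcr6, Rgs1) covered 85.7% and 92.3% of the cells of young 2 and 4 and 66.7%, 63.8% and 68.8% of those of old 1 to 3. The checkpoint set of inhibitory receptors (Pdcd1, Lag3, Ctla4, Tigit, Havcr2) covered 25% and 15.4% against 42.6%, 40.5% and 44.0%. The cytotoxic set covered 53.6% and 84.6% against 44.4%, 37.4% and 47.2%, and the follicular helper set 0% and 0% against 5.56%, 7.36% and 4%, where 0 in 28 and 13 cells allows up to 10.7% and 23.1%. The residency, checkpoint, cytotoxic and follicular helper sets did not overlap between the ages in these 5 libraries, and no test was made of a set. Young 1, with 7 thinned cells, stood outside them. There the follicular helper set was found in 1 cell (14.3%), above all 3 old libraries. The residency, checkpoint and cytotoxic sets were at 71.4%, 28.6% and 71.4% in young 1.

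**Figure D4:**
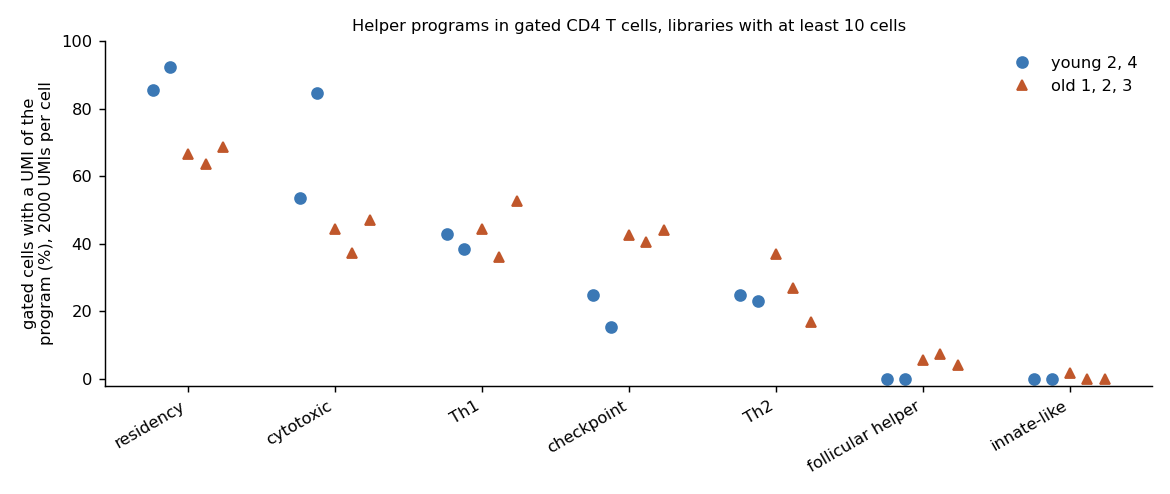
Share (%) of gated cells with a UMI of at least 1 gene of each set, cells thinned to 2000 UMIs, 1 point per library with at least 10 gated cells. The residency points of young 2 and 4 (85.7% and 92.3%) lie above those of the old libraries and the checkpoint points (25% and 15.4%) below them, and the Th1 and Th2 points overlap.

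Genes seen in the same cells fell along several lines. These are shares over 392 thinned cells of all libraries, given as a description. Cells with a Tnfsf8 UMI (107 cells from 5 libraries) had a Ccl5 UMI in 9.35% of cases, against 46.0% of cells without Tnfsf8, and a Nkg7 UMI, a granule membrane protein, in 8.41% against 35.4%. They more often had Pdcd1, the PD-1 receptor (17.8% against 5.26%), Lag3, an inhibitory receptor that binds MHC class II (11.2% against 2.46%), and Slamf6, a surface receptor of memory T cells (36.4% against 14%). Of the 24 cells with Sostdc1, all from the 3 old libraries, 79.2% had Tnfsf8 against 23.9% of the rest, 75.0% had Tox, a factor of chronically stimulated T cells, against 19.0%, and 75.0% had Tbc1d4, a Rab regulator of membrane traffic, against 24.7%. Ccl5 was found in 4.17% of them against 38.0%, Cxcr6 in 0% (which in 24 cells allows up to 12.5%) against 16.8% and Ikzf2 in 45.8% against 18.8%.

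A second line joined cytotoxic genes. The 22 cells with Eomes, a factor of cytotoxic lymphocytes, came from the 3 old libraries, and 59.1% of them had the granzyme Gzmk against 5.41% of the rest, 77.3% had Ccl5 against 33.5% and 72.7% had Nkg7 against 25.4%. Tnfsf8 was found in 9.09% of them against 28.4%, and Cd40lg in 0% (up to 13.6% in 22 cells) against 18.1%. The 28 cells with Il10, an inhibitory cytokine, also from the 3 old libraries, had Areg in 42.9% against 11.3%, Gata3 in 42.9% against 20.6% and Pdcd1 in 28.6% against 7.14%. Of the 24 cells with Il1rl1, 70.8% had Gata3 against 19.0% and 45.8% had Areg against 11.4%, whereas Tbx21 and Cxcr3 were found in 0% (up to 12.5% in 24 cells), against 16.8% and 20.9%. The 62 cells with Tbx21 had Ifng in 46.8% against 20% and Ccl5 in 61.3% against 31.2%.

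UMIs of the gated cells were summed per library for the test of age. Libraries with at least 10 gated cells entered, which were young 2 (28 cells) and young 4 (15 cells) against the 3 old libraries. Of 4566 genes tested, 0 (0%) passed an adjusted p of 0.05 in edgeR's quasi-likelihood test, 293 had an unadjusted p under 0.05, and the lowest adjusted p was 0.133. DESeq2 called 7 genes on the same sums. All 5 values lay apart between the ages, higher in old, for 609 genes (13.3%) and lower in old for 532 (11.7%). The median log2 change over all genes was 0.02. Young 1 (7 cells, 51417 UMIs) and young 3 (3 cells, 15198 UMIs) stayed outside the test, and their values, as CPM without scaling factors, are given beside some genes below. Members of the lists below are read against these shares, and no gene named in the next paragraphs passed unless it is said.

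The markers of the population split. Cd4 itself, used by the gate, was even at 390 and 381 CPM in young 2 and young 4 and 399, 400 and 374 in old 1 to 3. Tnfsf8 (chr4:63831308-63861347 in build mm10, minus strand) was at 202 and 135 CPM in the young libraries and 623, 285 and 336 in the old, a log2 change of 1.25 (SE 0.44, edgeR adjusted p = 0.636). Icos (chr1:60977927-61000320, plus strand) was at 520 and 872 against 199, 315 and 359, a log2 change of -1.23 (SE 0.37, edgeR adjusted p = 0.550). In these 5 libraries the ages did not overlap for either gene, in opposite directions. Outside the test, Icos had 9 UMIs in young 1, 175 CPM, which is below every old library (193 to 302 on that scale). In young 3 it had 15 of 15198 UMIs, a larger count from fewer UMIs than in young 1. Cd5 (chr19:10717116-10739002, minus strand) overlapped, at 289 and 381 against 263, 285 and 299. Cd40lg (chrX:57212143-57224042, plus strand) was at 210 and 172 CPM against 74.7, 98.0 and 58.8, a log2 change of -1.30 (SE 0.38, edgeR adjusted p = 0.529). By cells, Cd40lg had a UMI in 39.3% and 30.8% of the thinned cells of young 2 and 4 and in 7.41%, 21.5% and 8% of those of old 1 to 3.

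Of the 15 genes of the checkpoint and chronic activation list, 11 were measured highly enough to test. Lag3 (0 UMIs in young 2 and 4), Pdcd1 (3 and 1) and Il10 (1 and 0) met the filter on low counts through the old libraries only. Tox (9 and 0) met it with the help of the old libraries. The 11 genes were higher in old for 10 and lower for 1, with a median log2 change of 1.26 against 0.02 over all genes. For 8 the ages did not overlap, and 0 passed. Lag3, which could only be higher in old, is counted among the 10 and the 8. So are Pdcd1, Il10 and Tox, which the filter favoured in that direction. The counts and the median of the list are therefore given as description. Ctla4, an inhibitory receptor of the CD28 family (chr1:60887000-60915832), was at 195 and 49.1 CPM in young 2 and 4 and 313, 256 and 373 in old 1 to 3. Tox (chr4:6686353-6991557) was at 65.0 and 0 against 189, 130 and 162, and Pdcd1 (chr1:94038305-94052553) at 21.7 and 12.3 against 49.8, 45.2 and 104. All 3 genes were higher in every old library than in young 2 and young 4. Lag3 (chr6:124904361-124911705) had 0 UMIs in those young libraries and 53.4, 31.2 and 51.0 CPM in the old ones, at least 2.98-fold higher when the young sum is given the limit of 3 UMIs over both libraries, which a count of 0 allows. Il10 (chr1:131019845-131024974) had 1 UMI in the young and 149 in the old sums, a ratio of 17.3 with a counting interval of 3.06 to 688 (edgeR adjusted p = 0.218). Of 16 alternatives that kept the filter on low counts it passed in 1, all 7 libraries with the cells rich in other markers left out (log2 change 4.71, edgeR adjusted p = 0.0210), and over all alternatives its adjusted p ranged from 0.000363 to 0.981. For 6 of the 8 tested genes of the regulatory T cell list the level was higher in old too, with a median log2 change of 1.09, and Foxp3 was at 0 throughout by the rule. The part of regulatory T cells in the checkpoint values was not tested.

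Of the 8 genes of the senescence-associated list, 5 were tested. Sostdc1 and Spp1 had 0 UMIs in young 2 and 4 and so passed the filter on low counts through the old libraries only, and no count or median of the list is given for that reason. Sostdc1 (chr12:36314139-36318452, plus strand) had 0 UMIs in all 4 young libraries and 24, 76 and 73 in the old ones, or 85.4, 81.8 and 113 CPM. Against the limit of 3 UMIs it was at least 6.70-fold higher in old, with an edgeR adjusted p of 0.133. Since Sostdc1 entered the filtered fits through the old libraries only, the passes that follow are given as description. Without the cells rich in other markers its adjusted p was 0.0418, and with all 7 libraries 0.0198, so Sostdc1 passed in both. It passed also without old 1 (0.0410) and without old 2 (0.0448), in all in 5 of the 16 alternatives that kept the filter, and its adjusted p over all alternatives ranged from 6.64e-06 (no filter) to 0.981 (without young 4). At 2000 UMIs per cell Sostdc1 had a UMI in 7.02% of old gated cells, 0 of 50 young ones (which allows up to 6.00%), 0.171% of CD8 cells, 1.00% of naive T cells and 0.218% of progenitors. Spp1, osteopontin (chr5:104435118-104441050), had 0 UMIs in young 2 and 4 and was at 64.1, 36.6 and 49.5 CPM in old, at least 3.25-fold higher. Its level was 3.61 times as high in the macrophages of these libraries, and the macrophage list inside the gate was higher in old too, at 788 to 4127 CPM against 233 to 401. Without the cells rich in other markers the edgeR adjusted p of Spp1 was 0.707, and the part of macrophage RNA in its level was not tested. Cdkn1a, the cell cycle inhibitor p21, did not differ in order, at 303 and 282 against 238, 282 and 354.

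The follicular helper list had 6 tested genes, 5 of them higher in old, with a median log2 change of 0.80. The summed level of the list (12 genes) overlapped, at 710 to 1184 CPM in the young and 719 to 822 in the old libraries. The list was led by Slamf6 (chr1:171917515-171953170), at 14.5 and 36.8 CPM against 182, 118 and 152, a log2 change of 2.66 (SE 0.56, edgeR adjusted p = 0.218). With 2 and 3 UMIs in young 2 and 4, Slamf6 met the filter on low counts with the help of the old libraries. Outside the test, Slamf6 had 7 UMIs in young 1, 136 CPM, which lies inside the range of the old libraries on that scale (113 to 175), and 1 UMI in young 3. Slamf6 had a UMI in 3.57% and 0% of the thinned cells of young 2 and 4 and in 29.6%, 20.9% and 21.6% of those of old 1 to 3. Among genes chosen after their values were seen, for their low p, Tbc1d4 (chr14:101442360-101609191) was at 43.4 and 24.6 CPM against 246, 273 and 206, a log2 change of 2.74 (SE 0.45, edgeR adjusted p = 0.133). It was called by DESeq2 (adjusted p = 0.0191) and by edgeR without the cells rich in other markers (0.0418) and with all 7 libraries (0.0377), in all in 5 of the 16 alternatives that kept the filter. Cxcl2, a neutrophil chemokine (chr5:90903871-90905938), was at 36.1 and 24.6 against 577, 195 and 530, and Cd81, a tetraspanin (chr7:143052739-143067934), at 21.7 and 12.3 against 157, 177 and 226. Cxcl2 was 8.58 times as high in macrophages and Cd81 5.89 times as high in endothelial cells as in the gated cells. Both were called in 6 of the 16 alternatives, among them DESeq2 and all 7 libraries. Without the cells rich in other markers Cxcl2 stood at a log2 change of 3.35 (edgeR adjusted p = 0.118) in the 5 libraries and passed with all 7 (3.76, adjusted p = 0.0215), and Cd81 stood at 2.21 (adjusted p = 0.530) in the 5.

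Genes of other cells stood high in the same comparison. Fabp4 and Cd74 are on the lists by which the 22 cells rich in other markers were chosen, all of them old. Their smaller change without those cells was therefore set by the choice. Fabp4, the fatty acid-binding protein of capillary endothelium and adipocytes, was at 195 and 258 CPM in young 2 and 4 and 2046, 8528 and 1327 in old 1 to 3, a log2 change of 4.15 that was 1.22 without the 22 cells. Cd74, the MHC class II invariant chain, was at 50.6 and 61.4 against 103, 591 and 6188, a log2 change of 5.38 that was 1.36 without them. Tbc1d4, Slamf6 and Tnfsf8 are on none of those lists. Their log2 changes were as large without the 22 cells (2.84 against 2.74, 2.82 against 2.66 and 1.43 against 1.25). Ier3, Cxcl2 and Cd81 are also on none of those lists, and their changes were smaller without the 22 cells (0.89 against 1.54, 3.35 against 3.76 and 2.21 against 3.36). These genes were picked from their values, and the part of other cells' RNA in their changes was not tested. The 7 endothelial and mural genes tested and the 5 MHC class II genes were all higher in old, with median log2 changes of 3.12 (2 genes at 0 in young at their bound) and 5.09. Members such as Cldn5 (1 and 0 UMIs in young 2 and 4) and H2-Eb1 (3 and 2) met the filter on low counts through the old libraries only. These counts and medians are therefore given as description.

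**Figure D5:**
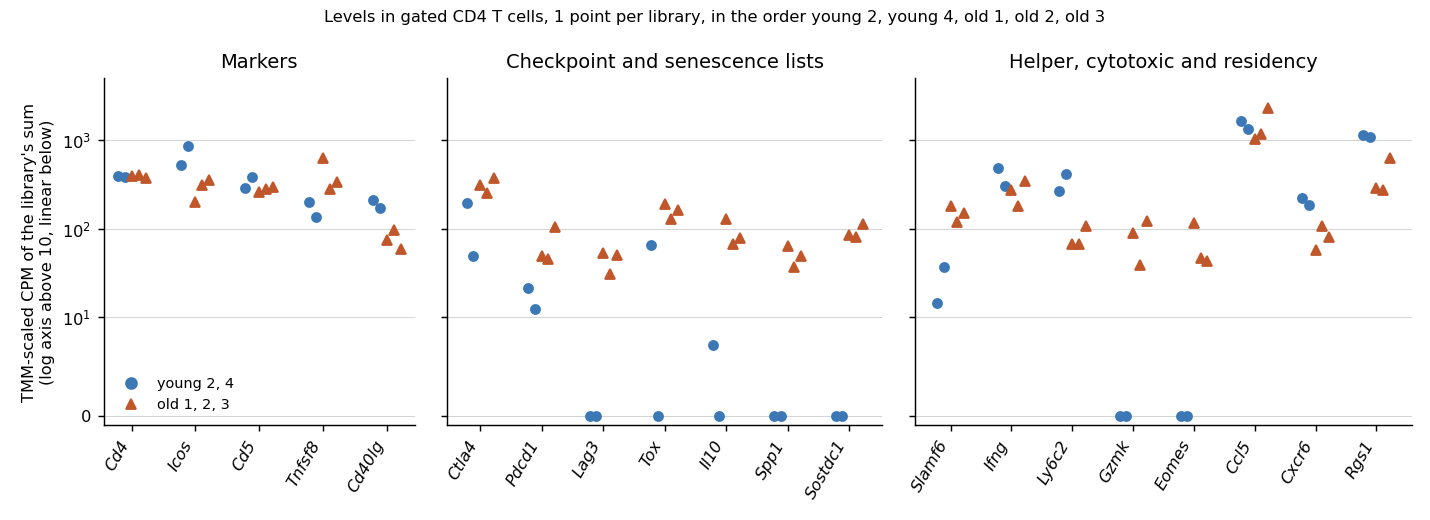
Level (CPM scaled by TMM factors; log axis above 10, linear below) of 20 genes in the summed gated cells, 1 point per library with at least 10 cells. Cd4 is even, Tnfsf8, Lag3, Il10, Spp1, Sostdc1, Slamf6, Gzmk and Eomes are higher in the 3 old libraries, and Icos, Cd40lg, Ly6c2, Cxcr6 and Rgs1 are lower.

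Helper programs showed no common direction. Of 11 Th1 genes tested 6 were higher and 5 lower in old, with a median log2 change of 0.01. Tbx21 was at 108 and 85.9 CPM against 42.7, 82.9 and 110, Ifng at 491 and 307 against 278, 182 and 348, and Cxcr3 at 116 and 147 against 92.5, 110 and 189. All 3 overlapped between the ages. Ly6c2, a glycolipid-anchored surface protein of memory T cells in the same list (chr15:75108158-75111970), was at 267 and 417 CPM against 67.6, 66.7 and 107, a log2 change of -2.06 (SE 0.37, edgeR adjusted p = 0.136). It was called by DESeq2 (0.00820) and by edgeR without the cells rich in other markers (-1.98, adjusted p = 0.0465), while with all 7 libraries the change was -1.44 (adjusted p = 0.635), and over all alternatives its adjusted p ranged from 0.000238 to 0.981. Outside the test, Ly6c2 had 0 UMIs in young 1 and in young 3. Ly6c2 has a near-identical neighbour, Ly6c1, which was at 28.9 and 36.8 CPM against 214, 221 and 80.4, so how reads were shared between the pair is uncertain. Of 4 Th2 genes 2 were higher and 2 lower, with a median log2 change of 0.33. Gata3 was at 195 and 172 against 228, 182 and 144, and Areg at 57.8 and 12.3 against 117, 101 and 170. Ccr4, a skin and tissue homing receptor, was at 93.9 and 49.1 against 7.12, 29.1 and 18.6, with 0 UMIs in young 1 and 4 in young 3. Of 4 Th17 genes 1 was higher and 3 lower, with a median log2 change of -0.37.

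Cytotoxic genes also differed among themselves. Of 10 tested 6 were higher and 4 lower in old, with a median log2 change of 0.44. Of the 10, 3 had 0 UMIs in young 2 and 4 and so could only be counted as higher. Ccl5 overlapped, at 1669 and 1326 CPM against 1032, 1187 and 2303, and Nkg7 at 528 and 393 against 303, 186 and 509. Gzmk had 0 UMIs in young 2 and 4 and was at 89.0, 38.8 and 122 CPM in old, at least 5.42-fold higher, and Eomes had 0 UMIs and was at 117, 46.3 and 43.3, at least 4.03-fold higher. Their edgeR adjusted p-values were 0.359 and 0.422, and Gzmk passed without old 2 (0.0448). Both genes entered the test through the old libraries only, so these values are given as description. Outside the test, Gzmk had 1 UMI in young 1 and 0 in young 3. By cells, Ccl5 had a UMI in 42.9% and 76.9% of the thinned cells of young 2 and 4 and in 31.5%, 30.1% and 38.4% of those of old 1 to 3, while the levels in CPM overlapped, so no order is read from it. In CD8 cells Ccl5 had a UMI in 95.6%.

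Residency and chemokine receptor genes were mostly lower in old. Of 7 residency genes tested 6 were lower, 3 without overlap, with a median log2 change of -0.27. Rgs1, which dampens chemokine receptor signals (chr1:144242296-144249242), was at 1134 and 1093 CPM against 288, 271 and 623, a log2 change of -1.49 (SE 0.40, edgeR adjusted p = 0.436; it passed without old 3, at -1.98 and 0.0177), and Cxcr6 (chr9:123806475-123811760) at 224 and 184 against 56.9, 108 and 80.4. Outside the test, Rgs1 had 24 UMIs in young 1, 467 CPM, inside the range of the old libraries on that scale (260 to 521). In young 3 it had 8 of 15198 UMIs. By cells Rgs1 had a UMI in 71.4% and 84.6% against 40.7%, 30.1% and 48.0%. Of 13 chemokine receptor and adhesion genes 9 were lower, with a median log2 change of -0.30. On the other side, Il7r, the receptor chain for the survival cytokine of memory cells, had a UMI in 17.9% and 15.4% of cells against 44.4%, 49.1% and 30.4%, while its level in CPM overlapped (145 and 246 against 349, 510 and 156). Outside the test, Il7r had 30 of 51417 UMIs in young 1. That is a larger share than in any old library (98 of 290741, 474 of 970980 and 101 of 773444 in old 1 to 3). In young 3 it had 3 of 15198 UMIs. Tcf7, a factor of naive and memory T cells, overlapped in CPM, at 166 and 344 against 238, 273 and 247.

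The remaining lists lay near the median of all genes, with a few exceptions. The cell cycle list had 11 of 12 tested genes lower in old, with a median log2 change of -0.90. Mki67, a marker of dividing cells, was at 7.23 CPM in young 2 and 479 in young 4 against 92.5, 32.3 and 27.8, so young 4 was high and young 2 low, and the ages overlapped. Outside the test, Mki67 had 4 UMIs in young 3, 263 CPM, and 1 in young 1. The summed cell cycle list stood at 3816 and 5207 CPM in young 3 and young 4, against 1323 and 1374 in young 1 and young 2 and 1371 to 1888 in the old libraries. Mki67 had a UMI in 8 of 392 thinned cells. Nuclear oxidative phosphorylation genes were lower for 54 of 74, with a median of -0.19 and 16 without overlap, and T cell identity genes for 11 of 16, with a median of -0.25. Immediate early genes, which answer to stimulation and to tissue digestion, were higher for 14 of 18, with a median of 0.43, among them Ier3 at 72.3 and 49.1 against 221, 177 and 155. Of the rest, the medians were -0.21 for costimulation (10 genes), 0.10 for cytokine receptors (13), -0.12 for proximal T cell receptor signalling (16), 0.03 for interferon response (14), 0.00 for heat shock (12), -0.07 for MHC class I (15) and -0.02 for ribosomal proteins (80). In none of these lists did a gene pass.

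Shares of cells with a UMI were tested for 47 genes over the same 5 libraries. For 23 the ages did not overlap, which with 2 against 3 libraries can reach p = 0.1 and no lower in an exact permutation test, and the lowest adjusted p was 0.336. By the same measure 25.8% of the 4566 genes of the test above did not overlap in either direction, and of the 32 genes here that are among those 4566 it was 18. The 47 genes were chosen with results known, so the larger share is given as a description. Ctla4 had a UMI in 17.9% and 15.4% of the cells of young 2 and 4 and in 40.7%, 33.1% and 32.8% of those of old 1 to 3, and Tox in 10.7% and 0% against 22.2%, 25.8% and 24.8%. Il10 was at 0% in both young libraries and at 9.26%, 7.36% and 8.80% in the old ones, against 1.71% in CD8 cells and 0.901% in progenitors. A count of 0 in the 28 and 13 thinned cells of young 2 and 4 allows shares of up to 10.7% and 23.1%, so a difference in Il10 by cells was not detectable at this depth.

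Whether the age change in CD4 cells differed from that in CD8 cells was tested in 1 model with the library as a block, over 7303 genes. Of these 27 (0.370%) passed an adjusted p of 0.05, with 24 higher and 3 lower in the CD4 gate relative to the CD8 gate, and 579 had an unadjusted p under 0.05. Rgs1 was one of the 3. Scaled together, it was at 1074 and 996 CPM in the CD4 gate of young 2 and 4 and 273, 248 and 594 in old 1 to 3, against 922 and 582 and then 1069, 557 and 1258 in the CD8 gate. The difference of the log2 age changes was -1.81 (SE 0.29, edgeR adjusted p = 0.0149), and -1.48 without the cells rich in other markers, where it passed too. Igf1r, the receptor of insulin-like growth factor, was at 6.84 and 11.2 CPM against 131, 179 and 69.3 in the CD4 gate and at 45.3 and 43.6 against 17.2, 14.2 and 4.47 in the CD8 gate, a difference of 5.77 (SE 0.88, edgeR adjusted p = 0.0146). Its CD4 values in young 2 and 4 rest on 1 UMI each, so the size of the difference is uncertain. Ccl4, a chemokine of cytotoxic cells, had 0 UMIs in the CD4 gate of young 2 and 4 and was at 30.3, 48.2 and 130 CPM in old, against 979 and 1454 and then 583, 517 and 1073 in the CD8 gate (edgeR adjusted p = 0.0149).

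Of the 11 genes of the endothelial and mural list, 1 (Acta2) was among the 27. Others of the 27, Cd36, Tsc22d1, Ifitm3, Cd81 and Igf1r, were 7.07, 6.90, 6.78, 5.89 and 1.21 times as high in endothelial cells as in the CD4 gate. Fcer1g and Ccl4 were higher in natural killer cells. In the CD8 gate, 1 cell of young 4 (19465 UMIs) held 80.1% of that library's UMIs of other cells' lists, and 1 cell of young 2 held 50.1%. The part of other cells' RNA in the 27 was not tested. Acta2, Mylk, Sparcl1 and Igfbp7 were highest in the CD8 gate of young 4, which held 12 cells: Acta2, smooth muscle actin, was at 1978 CPM there, at 0 in young 2 and at 2.68 to 20.7 in the old libraries. Without the cells rich in other markers 7 genes passed, 5 of them shared with the 27: Ccl4, Fcer1g, Rgs1, Ctla2a and Gm26917. The count also differed with single libraries left out, at 0 without old 2 or without old 3, 8 without young 4, 57 without old 1 and 72 without young 2. For the markers of the CD4 gate the difference did not pass: for Tnfsf8, where the CD8 gate had 0 UMIs in young 2 and 4 and was at 16.4, 21.8 and 35.8 CPM in old, the edgeR adjusted p was 0.742, and the difference was -1.78 (SE 0.46, edgeR adjusted p = 0.181) for Icos, -0.69 (SE 0.49) for Cd5 and 0.41 (SE 0.69) for Cd40lg. For Tox it was 0.61 (SE 1.03), for Ctla4 -0.38 (SE 0.74) and for Slamf6 0.75 (SE 1.48), each smaller than its error.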

How the data were processed

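The authors sequenced 7 libraries of stromal vascular cells and deposited raw UMI counts per gene and barcode, and the submitters' processing notes name Cell Ranger 4.0.0 and the build mm10. No deposited cell annotation was used here. Cells with at least 500 UMIs, 300 genes and at most 15% mitochondrial UMIs were kept. Cells with the highest doublet scores (Scrublet), 8 of them gated, stayed in, and leaving them out was an alternative. The members and gene lists were chosen with earlier results of these data known.

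Counts of gated cells were summed per library, for libraries with at least 10 gated cells (young 2 and 4, old 1 to 3), and tested with edgeR 4.0.16 (filterByExpr, TMM, quasi-likelihood, 2-sided, Benjamini-Hochberg, threshold 0.05) in R 4.3.3. CPM are TMM-scaled except in sums over lists and comparisons of gates, where they are unscaled. Age changes of CD4 and CD8 gates were compared in 1 edgeR model over the 5 libraries. Shares were compared by exact permutation of the libraries on the logit scale, 2-sided, and shares of cells with a UMI after thinning each cell to 2000 UMIs. Intervals are 95% exact (Clopper-Pearson), and they and the limit of 3 counts for a count of 0 cover counting error only. Gate comparisons used genes with a mean of at least 50 CPM in either gate, with 5 CPM added to both sides of a ratio.

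Named genes follow a rule: the 10 largest increases and decreases among passing genes without overlap and with a mean of at least 20 CPM at 1 age, outside the gate, not Gm- or Rik-named and not over 10 times higher in another cell type, the 4 lowest p-values among those left out as higher elsewhere (in both cases none passed), the 2 lowest p-values of each list, a written set of subset genes and the 5 lowest p-values between gates. Tbc1d4, Cxcl2 and Cd81 in the age comparison were named after their values were seen. So were Ccl4, Mylk, Igfbp7, Ctla2a, Gm26917, Cd36, Ifitm3 and Cd81 between gates. Genes in the comparisons of gates and in the shared-cell shares were likewise chosen from their values. The tests were checked on counts with known changes. Alternatives were each library left out, RLE factors, DESeq2 1.42.0, no filter, at least 20 gated cells, thinned cells, doublets left out, at least 2 CD3 UMIs and cells with 500 or more genes and 5% or less mitochondrial UMIs. Using all 7 libraries, with and without a replicate block, and leaving out gated cells with over 1% of UMIs in other cells' lists were chosen after seeing the data. Some genes are not reported here. Locations are from GENCODE M21, in which all 218 genes looked up were found.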

Additional observations from a re-analysis of the deposited data

Results flagged for a closer look

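The age change differed between the CD4 and the CD8 gate, by a test of the difference itself, for 27 genes. The lowest p-values belonged to Tsc22d1, a leucine zipper factor, with a log2 difference of 6.20, Sparcl1, a matrix protein, with 5.80, Fcer1g, an Fc receptor chain, with 5.66, Igf1r with 5.77 and Acta2, smooth muscle actin, with 10.99. Rgs1, named also in the comparison by age, differed by -1.81. Tsc22d1 was at 0 and 11.2 CPM in the CD4 gate of young 2 and 4 against 50.5, 77.7 and 53.1 in old 1 to 3, and at 56.6 and 334 against 33.6, 39.3 and 19.7 in the CD8 gate. Fcer1g was at 13.7 and 0 CPM against 10.1, 69.8 and 420, and in the CD8 gate at 243 and 582 against 45.7, 43.7 and 310. Acta2 rests on 1978 CPM in the 12 CD8 cells of young 4. The CD4 gate had 0 UMIs of Acta2 in young 2 and 4, 0 and 1 of Tsc22d1, 1 and 1 of Igf1r and 2 and 0 of Fcer1g. The size of these fitted differences therefore depends on the prior count. For the shares of the 4 young libraries over 3 denominators, 0 had a library far from the others.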

How the results depend on the processing

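The count of genes that passed by age, 0 as reported, was 1 to 13 with 1 library left out, 2 with at least 20 cells per library (Il17a and Il17f, on young 2 alone), 7 with DESeq2, 143 with no filter, 11 with all 7 libraries, 10 with all 7 libraries and a replicate block, 4 without the gated cells rich in other cells' markers and 4 with all 7 libraries without those cells. The cause was not tested. Where young 2 or young 4 was left out, the single young library is assumed to vary like the old ones. The count of genes whose age change differed between the CD4 and CD8 gates, 27, was 0 to 72 with 1 library left out, 139 with no filter, 14 without doublets and 7 without the cells rich in other markers. The share of kept cells kept its direction throughout, with log2 odds differences of 2.57 to 3.33 with 1 library left out and 2.75 to 2.94 otherwise. Same-numbered libraries did not deviate together (correlations of -0.02, 0.02 and -0.00 over 6688 genes in 3 pairs). With 3 pairs this cannot exclude a pairing, and the labels do not state one. With a replicate block the share difference was 2.94.

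Among 74 named genes, 78 of 1096 values under alternatives had the opposite sign, over 18 genes and none past the threshold, and 22 genes passed under at least 1 alternative. The comparison of age changes with regulatory T cells could not be run, since no young library held 10 of those cells (highest 9). No block was possible within the 5 libraries, which share 1 number only. Depth limits the test: the young sums of the test hold 28 and 15 cells.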
